A study of Mus musculus with 13 samples.

Results

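The 593 regions described here were peaks of open chromatin in the newborn mouse kidney that were open in nephron progenitors, stayed open in nuclei of the loop of Henle, and were lower in nuclei of the convoluted proximal tubule and in podocytes. They were chosen by their own values in the 2 P0 samples of a single-nucleus ATAC-seq study, in which a transposase marks accessible DNA in each nucleus. An open call was scored where a nucleus had a fragment in a peak, and for every deposited cluster the calls of its nuclei were added up and scaled to a common total of 1000000 calls a cluster (CPM). A peak was a member when it had at least 10 CPM in the nephron progenitor cluster (NP), at least 0.5 times the NP value in the loop of Henle cluster (LOH), and at most 0.333 times the NP value in both the proximal tubule cluster (PT, the convoluted part) and the podocyte cluster (Podo). The members made up 2.42% of the 24474 peaks with at least 10 CPM in NP, called NP-open below, and 0.197% of all 300755 peaks. By the same thresholds, 821 NP-open peaks were kept only in Podo, 53 only in PT, 13988 were at or above 0.5 times NP in all 3 lineages, and 2324 were at or below 0.333 times NP in all 3.

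Nuclei came from whole mouse kidneys, and no treatment is named for any sample. The 2 samples labelled P0 were prepared from both kidneys of mice that the protocol gives as 1 day old, and the adult group was 1 sample at postnatal day 21 (P21) and 2 at postnatal day 56 (P56), taken after perfusion. Genotype, strain, sex and the number of animals behind each sample of nuclei were not given in the sources used here, which name wild type newborns and C57BL/6 mice for the parallel single-cell RNA samples alone, so p-values measure only the spread between these samples. The deposited clusters were built from open chromatin of all samples together, and besides NP, LOH, PT and Podo they include the straight proximal tubule (PT2), the distal convoluted tubule (DCT), the connecting tubule (CNT), principal cells (PC) and intercalated cells (IC) of the collecting duct, endothelium, immune cells and 2 stromal clusters.

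Nephron progenitors of the cap mesenchyme renew under Six2 and related factors, and a Wnt signal turns them into the renal vesicle, an epithelial ball from which the podocyte, the proximal tubule, the loop of Henle and the distal tubule are patterned. Its distal side, which gives the loop and the distal tubule, is marked by Lhx1 and by Notch ligands, and later by Pou3f3 and Irx factors. The thick ascending limb of the loop takes up sodium chloride through Slc12a1 and senses calcium through Casr. The collecting duct has another origin, the ureteric bud, which shares Pax2, Lhx1 and Gata3 with the early nephron.

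The central 300 bases of 7 members are shown because the results below turn on them. The Uncx and Pax2 peaks were among the 10 members with the highest NP level, and the Sall1 and Lhx1 peaks lie near progenitor and renal vesicle genes. The Mecom peak was open in the distal tubule as well. In the adult the Fzd7 peak was higher in principal cells than in the loop, and the Casr peak was higher in the adult loop than at P0. All sequences are the + strand of mm10, and the distance is from the start of the nearest protein-coding gene, with a minus for upstream. Capitals mark the words searched for factor families (posterior Hox, Pou octamer, Hnf1, Esrr, Tfap2, Irx, Tcf/Lef, Pax2/8, Wt1, Lim homeobox and Fox) on either strand. A word is a match of letters and not a bound site, and where no letter is in capitals none of these words lay in the 300 bases.
Uncx 55.6 kb (distal, no word), chr5:139599366-139599665: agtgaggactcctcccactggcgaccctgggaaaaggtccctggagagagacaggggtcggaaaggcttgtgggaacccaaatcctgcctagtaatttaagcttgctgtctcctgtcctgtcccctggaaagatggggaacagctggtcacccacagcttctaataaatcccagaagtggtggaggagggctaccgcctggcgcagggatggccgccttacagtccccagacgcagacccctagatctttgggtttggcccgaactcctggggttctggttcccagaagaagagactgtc
Pax2 -85.5 kb (distal, Wt1 word), chr19:44670395-44670694: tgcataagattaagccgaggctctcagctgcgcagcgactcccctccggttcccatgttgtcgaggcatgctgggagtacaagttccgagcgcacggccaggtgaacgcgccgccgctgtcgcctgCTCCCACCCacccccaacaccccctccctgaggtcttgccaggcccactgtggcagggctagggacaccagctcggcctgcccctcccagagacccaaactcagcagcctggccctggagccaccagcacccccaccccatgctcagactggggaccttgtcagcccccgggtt
Sall1 -239.6 kb (distal, Tcf/Lef word and then Hnf1 word), chr8:89283652-89283951: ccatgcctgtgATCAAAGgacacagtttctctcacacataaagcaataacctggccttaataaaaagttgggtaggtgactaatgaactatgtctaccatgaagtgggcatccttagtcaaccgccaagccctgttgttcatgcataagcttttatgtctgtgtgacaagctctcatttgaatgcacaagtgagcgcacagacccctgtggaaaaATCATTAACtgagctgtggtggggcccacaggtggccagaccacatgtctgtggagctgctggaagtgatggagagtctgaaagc
Lhx1 -134.1 kb (distal, Hnf1 word and then Wt1 word), chr11:84659469-84659768: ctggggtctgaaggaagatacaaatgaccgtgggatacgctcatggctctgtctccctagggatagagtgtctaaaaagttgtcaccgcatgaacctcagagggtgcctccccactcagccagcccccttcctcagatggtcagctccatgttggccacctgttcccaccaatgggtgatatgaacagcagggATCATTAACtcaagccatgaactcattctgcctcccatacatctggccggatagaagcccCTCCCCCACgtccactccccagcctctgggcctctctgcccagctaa
Mecom 56.4 kb (an intron of Mecom, Tfap2 word), chr3:30452966-30453265: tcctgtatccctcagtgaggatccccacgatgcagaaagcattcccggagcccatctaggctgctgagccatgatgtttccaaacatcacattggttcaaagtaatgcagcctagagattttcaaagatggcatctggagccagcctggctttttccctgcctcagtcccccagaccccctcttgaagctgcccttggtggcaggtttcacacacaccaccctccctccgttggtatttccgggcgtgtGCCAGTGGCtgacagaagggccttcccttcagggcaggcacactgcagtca
Fzd7 -87.4 kb (distal, Tfap2 word), chr1:59394867-59395166: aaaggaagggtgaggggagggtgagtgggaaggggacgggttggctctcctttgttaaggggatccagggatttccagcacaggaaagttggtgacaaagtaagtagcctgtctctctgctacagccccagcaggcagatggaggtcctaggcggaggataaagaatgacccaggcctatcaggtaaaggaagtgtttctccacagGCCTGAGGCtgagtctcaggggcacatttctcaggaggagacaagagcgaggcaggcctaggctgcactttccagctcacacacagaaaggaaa
Casr 28.1 kb (an intron of Casr, no word), chr16:36533381-36533680: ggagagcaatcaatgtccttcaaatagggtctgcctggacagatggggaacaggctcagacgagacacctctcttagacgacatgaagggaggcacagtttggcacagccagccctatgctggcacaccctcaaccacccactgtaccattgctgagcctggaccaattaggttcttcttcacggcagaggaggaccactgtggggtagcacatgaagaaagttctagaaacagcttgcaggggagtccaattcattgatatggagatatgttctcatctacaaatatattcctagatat

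At P0 the members were low in the filtering and proximal lineages and ran on at middling levels through the distal nephron. The pooled median was 14.1 CPM in NP (quartiles 11.7 and 19.5), 11.1 in LOH (8.09 and 16.1), 2.03 in PT and 3.20 in Podo, where the highest members reached 13.4 and 14.1 CPM. These 4 values chose the members and are given as a description. The median in the clusters that the rule left out was 9.57 CPM in CNT, 8.61 in PC, 6.36 in DCT, 3.97 in IC, 2.75 in PT2, 1.99 and 1.89 in the 2 stromal clusters, 1.56 in endothelium and 0 in immune nuclei. By sample the median was 14.4 and 14.4 CPM in NP, 11.8 and 10.5 in LOH, 10.2 and 10.1 in CNT, 8.96 and 8.63 in PC, and 7.90 and 4.91 in DCT, the last from 51 and 57 nuclei. Both samples kept this order. LOH lay close to CNT in sample 2 and PC close to DCT in sample 1, so the order of these neighbors is only loosely set by 2 samples. Over all NP-open peaks the median was 19.1 CPM in NP, 17.4 in LOH and 12.9 in PT, so the members were also somewhat weaker peaks in NP than the NP-open peaks as a whole.

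**Figure D1:**
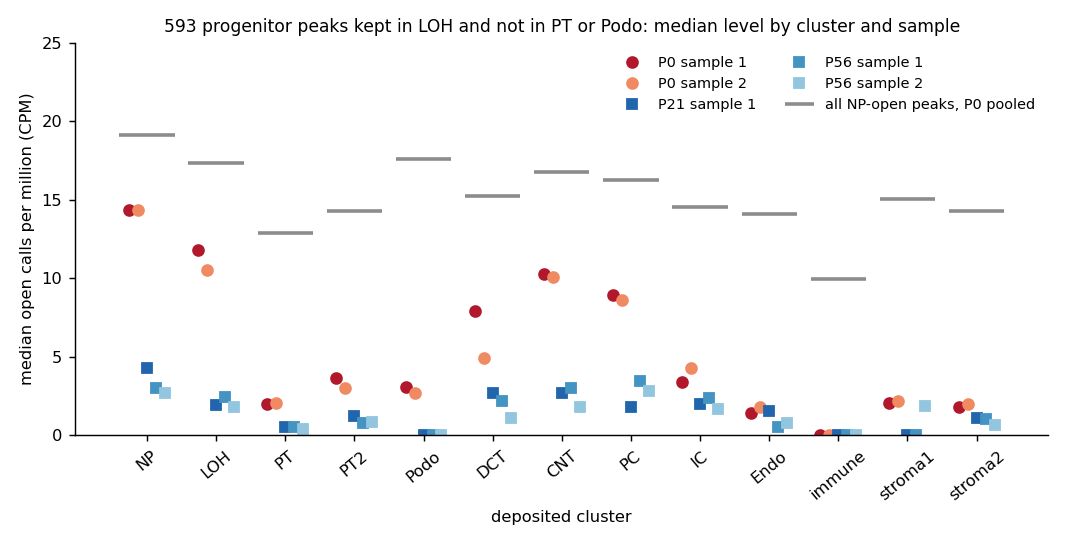
Median level of the 593 members (vertical axis, CPM) in each deposited cluster (horizontal axis), with circles for the 2 P0 samples and squares for the P21 sample and the 2 P56 samples; the gray bar is the pooled P0 median of all NP-open peaks. NP, LOH, CNT and PC stand highest at P0, at 8.63 to 14.4 CPM, and the adult medians lie between 0 and 4.32 CPM in every cluster drawn.

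No gap in the values set the members apart from the peaks just outside the thresholds. The 5 members with the least NP signal, near Fam20b, Egln3, Slc34a2, Cdc7 and Pdzrn3, had 10.0 CPM, and 5 peaks that failed by this threshold alone, near Ptpn14, Nt5dc3, Wnk2, Lmo7 and Crim1, had 9.96. The 5 members just inside the LOH threshold, near Sox11, Atrnl1, Phlda3, Rph3al and Mgat4c, had LOH to NP ratios of 0.5004 to 0.5021, and those just outside, near Abl2, Zfp174, Hunk, Nuak1 and Mtpn, had 0.4986 to 0.4999. On the PT side the 5 just inside, near Dag1, Rassf2, Calml3, Arfgap2 and Abcc4, reached 0.327 to 0.330, and the 5 just outside, near Bmpr1b, Kcnc4, Tcte2, Dab2ip and Stc1, had 0.334 to 0.337. On the Podo side the members near Ndrg2, Dag1, Gramd1b, Serpinf1 and Zfp608 reached 0.3316 to 0.3326, and the peaks near Rab11fip4, Mepe, Tlr5, Eif1b and Ephb2 missed at 0.3334 to 0.3349. Within 10% of a threshold lay 94 members for the NP level, 104 for LOH, 35 for PT and 98 for Podo.

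When the rule was applied to 1 P0 sample, the levels of the other had no part in the choice. The clusters and the peaks were nevertheless built from all samples together, so the other sample is not independent of the groups compared. The rule on P0 sample 1 chose 639 peaks, and in sample 2 LOH was above PT at 99.7% of them and above Podo at 96.9%, LOH was at least 0.5 times NP at 78.2%, PT was at most 0.333 times NP at 92.5% and Podo at 71.5%. The rule on P0 sample 2 chose 598 peaks, and in sample 1 the same shares were 99.7%, 96.0%, 88.0%, 90.3% and 64.7%. Both samples alone chose 276 peaks. The directions against PT and against Podo thus both recurred at nearly all peaks. Of the peaks with at least 10 CPM in NP in the sample that chose, without the rest of the rule, 74.8% and 74.2% had LOH above PT in the other sample and 42.4% and 43.8% had LOH above Podo. Among them LOH was at least 0.5 times NP at 75.6% and 77.8%, so the 78.2% read in sample 2 lay near this background. PT was at most 0.333 times NP at 32.2% and 29.4% of them, and Podo at 17.9% and 15.5%. In the 2 samples 307 and 362 podocyte nuclei stood behind the Podo values.

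The word "only" holds for the 3 lineages in the rule and not for the distal nephron or the collecting duct. At P0, 376 members (63.4%) had at least 0.5 times the NP level in CNT, 314 (53.0%) in PC and 232 (39.1%) in DCT, and 147 (24.8%) did so in all 3 of these clusters. The share was 26.6% in IC, 18.2% and 15.0% in the stromal clusters, 12.6% in endothelium, 9.27% in PT2 and 6.91% in immune nuclei. Among all NP-open peaks the shares were higher in every one of these clusters, for example 72.4% in CNT, 70.7% in PC, 66.1% in DCT and 61.9% in endothelium, and among the peaks kept only in Podo they were 2.68%, 3.41%, 2.44% and 14.6%. At the other end, 365 members (61.6%) were at most 0.333 times NP in endothelium, immune and both stromal clusters together, against 19.6% of NP-open peaks. Taken singly, endothelium, immune and the 2 stromal clusters were this low at 83.5%, 90.1%, 73.5% and 76.6% of members. Among the peaks kept only in Podo these shares were 80.0%, 90.6%, 62.0% and 64.9%, so low levels there were not particular to the members. The members were therefore called progenitor peaks kept in the loop and not in PT or Podo.

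**Figure D2:**
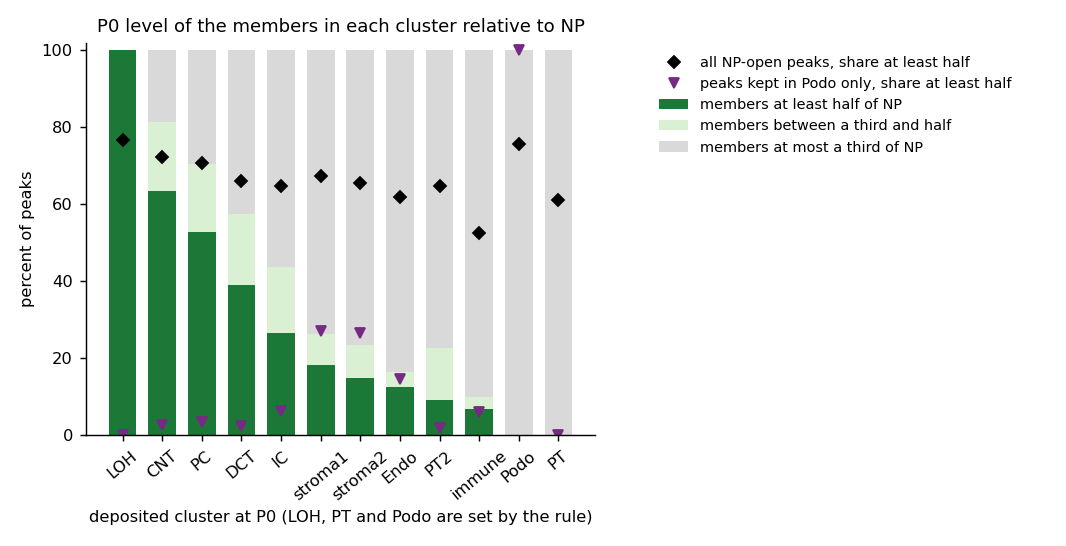
Share of the 593 members (vertical axis, percent) by their P0 level relative to NP in each deposited cluster (horizontal axis), in stacked bars for at least 0.5 times NP (dark), between the thresholds (pale) and at most 0.333 times NP (gray), with diamonds for all 24474 NP-open peaks and triangles for the 821 peaks kept only in Podo at 0.5 times NP or more. LOH, PT and Podo are fixed by the rule; the dark bars fall from 63.4% in CNT to 6.91% in immune nuclei, and the triangles lie at 2.44% to 3.41% in DCT, CNT and PC.

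A small set was open in NP and LOH with every other cell type cluster at or below 0.333 times NP. It held 35 members, or 5.90%, where 9.20% of NP-open peaks had all these other clusters at or below 0.333 times NP. It included the Uncx peak at 41.7 kb, the Lhx1 peak at -134.1 kb, a peak -88.6 kb from Dip2c, the Wnt4 peak at -49.4 kb and the Hmga2 peak at 26.8 kb. The Uncx peak had 36.4 and 35.6 CPM in the NP nuclei of the 2 P0 samples and 22.9 and 21.4 CPM in their LOH nuclei. Its level was 1.12 and 5.63 CPM in PC. In DCT this peak had 0 and 12.3 CPM, the latter from 5 nuclei and above 0.333 times the NP level of that sample. Since 3 open calls make 3.81 CPM in the pooled P0 DCT nuclei, a place in this set rests on few calls there. The adult LOH samples gave 0.640, 1.41 and 0.913 CPM, all below both P0 samples.

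Most members lay away from gene starts, as did most of all peaks. Of the 593, 250 were in introns, 198 were distal, 117 touched an exon and 28 lay within 5 kb upstream of a start. Introns held 42.2% of members and 46.7% of all peaks, and distal positions 33.4% and 31.6%. An annotated start site was covered by 54 members (9.11%), against 52.3% of NP-open peaks and 7.43% of all peaks. The share was 5.36% in the peaks kept only in Podo and 3.23% in those closed in LOH, PT and Podo. The median width was 860 bases and the median distance to the nearest protein-coding start 36.7 kb. Among the members over the start of a protein-coding gene, the highest NP levels were at Cacnb4, a calcium channel subunit, Syt2, a synaptotagmin, Cldn9, a claudin of tight junctions, Ndrg2 and Lbp. The Cldn9 start had 36.7 CPM in NP, 41.1 in LOH, 41.9 in PC, 7.04 in PT and 4.48 in Podo. The base composition was close to that of other peaks away from starts, with a median GC content of 50.7% against 51.7% for NP-open peaks away from starts.

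The members were spread over 517 nearest genes, and few genes held several. A total of 59 genes had at least 2 members and 10 had at least 3, and 79 members had another within 50 kb. Uncx, Pax2 and Hmga2 had 5 each, Gm26897 had 4, and Sall1, Lhx1, Abcc4, Abr, 1810010D01Rik and Ubash3b had 3 each. The 5 Uncx peaks ran over 59.4 kb of chromosome 5 and were 5 of its 17 NP-open peaks. The 5 Pax2 peaks ran over 165.5 kb of chromosome 19 and were 5 of 16. The 5 Hmga2 peaks ran over 296.0 kb of chromosome 10 and were 5 of 12.

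By count, progenitor genes held the most members among the gene lists that were set out for the kidney, where 2.42% of all NP-open peaks were members. Of the 143 NP-open peaks nearest to a gene of the progenitor list, 18 (12.6%) were members, all of them at Hmga2, Pax2, Uncx or Sall1, and they made up 3.04% of the members while the list made up 0.584% of NP-open peaks. The renal vesicle and segmentation list had 10 members of 169 NP-open peaks (5.92%), 3 at Lhx1, 2 at Tcf7l2 and 1 each at Wnt4, Dll1, Jag1, Notch1 and Sox11. The distal nephron transcription factors had 6 of 59 (10.2%), at Mecom with 2, and at Emx2, Gata3, Irx1 and Pou3f3. They made up 1.01% of the members and 0.241% of NP-open peaks, so their share lay close to that of the progenitor list. The Wnt and Notch pathway list had 8 of 150 (5.33%), at Fzd7, Tcf7l2, Fzd2, Notch1, Dll1 and Jag1. The thick ascending limb list had 2 of 47, at Casr and Thsd4, the proximal tubule list 1 of 28, near Maf, and the podocyte list 1 of 90, in Magi2. The lists overlap in the Wnt and Notch genes, and nearest genes are an assignment by distance.

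The 10 members with the highest NP level were near Enc1, Apobec2, Slc39a11, Irf2bp2, Hoxb3, Uncx, Pax2, Ercc6l2, Fgfr2 and Cacnb4, at 61.7 to 44.6 CPM in NP. The Enc1 peak, 70.0 kb from its gene, had 59.9 and 63.1 CPM in the P0 NP nuclei and 34.2 and 33.3 in LOH. It had 47.4 and 46.7 CPM in DCT, against 4.45 and 4.78 in PT. The Apobec2 peak, -4.42 kb from its gene, had 61.5 and 53.9 CPM in NP, 33.5 and 33.1 in LOH and 34.0 and 31.9 in PC. The Fgfr2 peak lies in an intron of that fibroblast growth factor receptor gene and had 48.5 and 44.4 CPM in NP, 26.0 and 24.2 in LOH and 16.4 and 18.4 in PC. In each of these members the 2 P0 samples lay close together and the NP values stood above the LOH values in both. Hoxb3, a homeobox gene, had its peak 5.42 kb from the start at 53.5 and 50.9 CPM in NP and 32.1 and 30.2 in LOH.

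Uncx and Sall1, both transcription factor genes of the progenitor, had their strongest members far from their starts. The Uncx peak at 55.6 kb, printed above, had 50.6 and 49.2 CPM in NP, 30.4 and 31.6 in LOH, 3.96 and 3.29 in PT, and 13.2 and 14.7 in Podo. Its CNT level was 17.9 CPM and its PC level 10.8 and 12.0 CPM, between the loop and the proximal tubule. In adult LOH it had 5.12, 3.87 and 2.51 CPM, every value below both P0 samples. The Sall1 peak at -239.6 kb had 36.5 and 39.7 CPM in NP, 35.6 and 30.6 in LOH, and 4.48, 3.17 and 2.74 in the adult LOH samples. Podocytes had 2.33 and 2.73 CPM at this site, far below both NP and LOH.

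Pax2, the paired box factor of both the nephron and the collecting duct, had members of different kinds. The peak at -85.5 kb had 47.8 and 48.2 CPM in NP, 33.7 and 33.5 in P0 LOH, 14.2 and 15.4 in P0 PC, and 1.92, 1.06 and 2.28 in adult LOH. The intronic peak at 74.9 kb had 31.2 and 32.9 CPM in NP, 28.3 and 23.6 in P0 LOH and 41.1 and 36.8 in P0 PC. In the adult it stood at 33.1, 46.6 and 34.5 CPM in PC and at 6.40, 5.28 and 3.65 in LOH, so the adult PC and LOH samples did not overlap. The peak at -8.20 kb had 9.44 and 8.93 CPM in P0 LOH and 16.6, 10.2 and 13.9 in adult LOH, the only Pax2 member with all adult LOH samples above both P0 samples.

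The renal vesicle genes Lhx1 and Wnt4 held members that were open in the newborn and close to empty in the adult. The Lhx1 peak at -135.7 kb had 33.6 and 32.3 CPM in NP, 28.1 and 22.0 in LOH and 28.0 and 21.8 in PC at P0. No PT nucleus of either P0 sample had it open, which allows a pooled level of up to 0.406 CPM. In adult LOH it was at 0, 0 and 0.228 CPM, the last from a single nucleus. The neighboring peak at -134.1 kb, printed above, had 27.6 and 35.2 CPM in NP and 19.8 and 19.3 in LOH, but only 9.33 and 4.50 in PC. The Wnt4 peak, near the Wnt ligand that starts the epithelial transition, had 22.3 and 23.3 CPM in NP, 10.6 and 12.5 in LOH and 0.640, 0 and 0 in adult LOH.

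**Figure D3:**
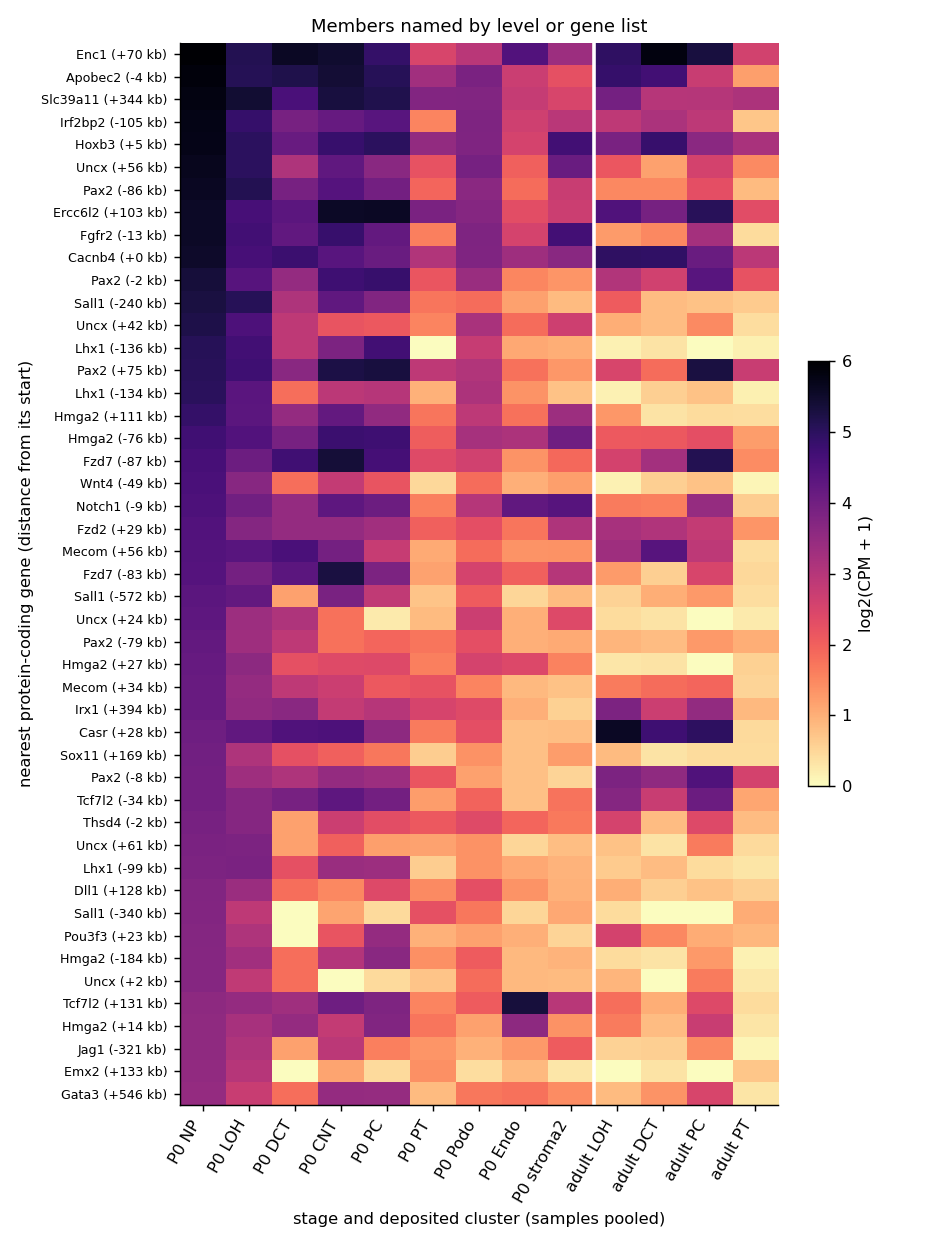
Level of the members near the named genes, as log2(CPM + 1) with samples pooled (color), in 9 P0 clusters and 4 adult clusters (horizontal axis, adult columns right of the white line), 1 line per peak labeled with its nearest protein-coding gene and the distance from its start. The lines are in order of NP level; the Lhx1 and Wnt4 lines are dark in P0 NP and LOH and pale in the adult columns, while the Casr line is darkest in adult LOH, at 47.4 CPM.

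Members at other Wnt, Notch and distal genes had these levels at P0. The Fzd7 peak at -87.4 kb, near a Wnt receptor gene, had 23.4 and 23.8 CPM in NP, 15.8 and 15.7 in LOH, 23.9 and 24.0 in PC and 40.7 in CNT. The peak near Notch1, the receptor, had 21.8 and 22.5 CPM in NP and 14.9 and 15.1 in LOH. The peaks nearest to the Notch ligand genes Dll1 and Jag1 had pooled levels of 12.5 and 10.7 CPM in NP and 9.38 and 7.65 in LOH, and in the PC nuclei of the 2 samples they had 5.60 and 3.00 CPM and 2.61 and 1.50 CPM. The Mecom peak at 56.4 kb, in a zinc finger factor gene of the distal nephron, had 19.98 and 21.4 CPM in NP, 20.3 and 19.4 in LOH and 18.4 and 27.0 in DCT, and 7.09 and 4.50 in PC. At Casr, the calcium-sensing receptor, NP had 16.9 and 14.1 CPM, LOH 17.2 and 18.1, PT 2.23 and 2.09, and DCT 29.0 and 14.7.

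The share of members among the open peaks of single nuclei was also read by cluster. Whether a part of the nuclei carried the level of a cluster was not tested. The median P0 progenitor nucleus had 57 and 71 members open in the 2 samples, or 1.02% and 1.01% of its open peaks. The median LOH nucleus had 47 and 48, or 0.792% and 0.663%, the PC nucleus 0.655% and 0.628%, and the PT nucleus 10 and 7, or 0.137% and 0.126%. The 10th and 90th percentiles of LOH nuclei were 0.452% and 1.19% in sample 1 and 0.425% and 1.14% in sample 2, and those of NP nuclei 0.655% and 1.35%, and 0.531% and 1.37%, so the clusters overlapped. Adult LOH nuclei had medians of 0.309% to 0.384%. The members were part of what separated the clusters, so these shares are a description.

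The label of the loop was checked against 4 marker genes at their start sites. Slc12a1 was open at 16.0 CPM in P0 LOH and at most at 10.2 CPM elsewhere, in DCT. The Ptger3 start did not separate the loop at P0, with 15.1 CPM in LOH, 14.5 in IC and 14.2 in NP. At P0 the Umod start was highest in PT2 and the Cldn10 start in immune nuclei. In the adult all 4 were highest in LOH, with Slc12a1 at 79.8 CPM and Umod at 73.2. Progenitor starts were open in P0 LOH as well. At least 1 of the start sites of Six2, Cited1, Uncx and Eya1 was open in 38.9% and 37.1% of P0 LOH nuclei, against 54.5% and 65.5% of NP nuclei, 25.6% and 25.7% of PC nuclei, 25.4% and 35.6% of Podo nuclei, 14.4% and 8.26% of PT nuclei, and 4.09% to 5.84% of adult LOH nuclei. At P0 the Six2, Cited1 and Uncx starts were highest in NP, but the Eya1 start was highest in Podo, at 28.5 CPM against 24.3 in NP. The level of all 4 starts in P0 LOH was 11.9 to 19.3 CPM, with none at 0. P0 LOH nuclei with such a start open had a median of 0.832% and 0.766% of their open calls in members, against 0.746% and 0.591% in those with none open, and they were also deeper, with 7765 and 9399 open peaks against 5677 and 5995. Those with a loop marker start open had 0.714% and 0.566%, against 0.828% and 0.713% in those with none. Without the LOH nuclei with a progenitor start open, which left 798 of 1287, the LOH median of the members was 10.6 CPM in place of 11.1, and 473 members (79.8%) kept at least 0.5 times NP. A progenitor-like nucleus with none of these starts scored open is not removed in this way, and the part of such nuclei in the LOH values was not tested. The adult kidney holds 52, 90 and 53 nuclei in the NP cluster, of which 5.77% to 10.0% had such a start open, and they were not used as progenitors here.

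After birth most members fell in the loop itself. The pooled adult LOH median was 2.16 CPM against 11.1 at P0, with 1.92 in the P21 sample and 2.47 and 1.83 in the P56 samples. At 494 of 593 members (83.3%) both P0 samples lay above all 3 adult samples in LOH, against 50.3% of NP-open peaks and 33.8% of all peaks. In 393 members (66.3%) the adult level was at most 0.333 times the P0 level, and in 142 (23.9%) it was at least 0.5 times. Over all NP-open peaks the LOH median was 17.4 CPM at P0 and 12.3 in the adult, and 29.6% fell to 0.333 times or less. The P0 values of LOH chose the members, so these changes are a description and were not tested. In PC, outside the rule, the member median was 8.61 CPM at P0 and 3.19 in the adult, and 43.5% of members kept at least 0.5 times their P0 level, against 76.3% of NP-open peaks.

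The share of members kept in the adult loop is given here by their P0 level in the distal tubule and collecting duct, beside 61.6% of all NP-open peaks with an adult LOH level of at least 0.5 times the P0 level. Of the 147 members at 0.5 times NP or more in DCT, CNT and PC, 66 (44.9%) had such an adult level, with a median of 5.81 CPM. Of the 314 at that level in PC, 91 (29.0%) did, and of the 175 at or below 0.333 times NP in PC, 24 (13.7%) did, with medians of 2.85 and 1.02 CPM. Among the gene lists, 16 of the 18 progenitor gene members and 9 of the 10 renal vesicle members fell to 0.333 times or less in adult LOH, with adult medians of 1.25 and 0.683 CPM. The distal transcription factor members did so in 3 of 6, and neither of the 2 thick ascending limb members did. Of these the Casr peak went from 17.7 to 47.4 CPM, pooled over samples, and the Thsd4 peak from 11.9 to 4.78, less than 0.5 times its P0 level. These differences between groups of members were not tested.

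**Figure D4:**
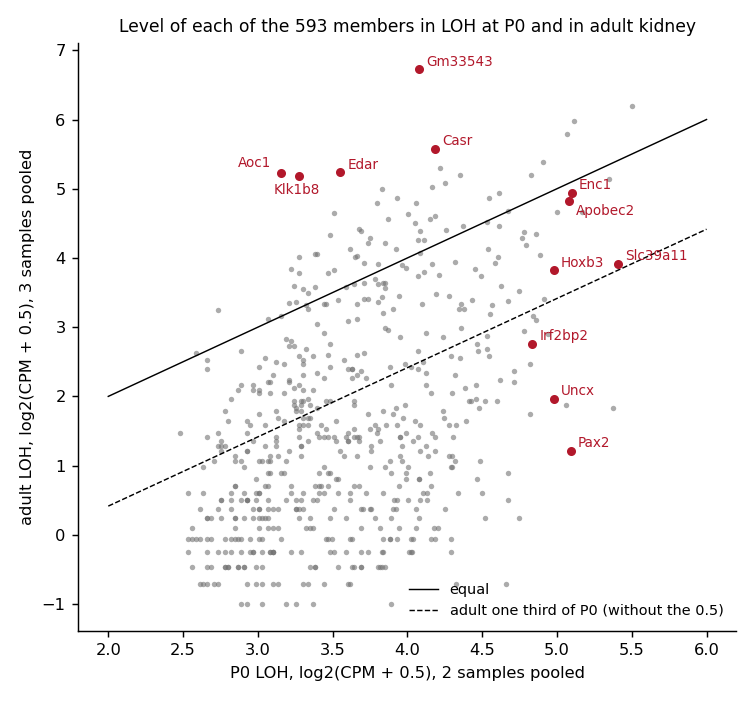
Level of each member in LOH nuclei at P0 (horizontal axis) and in adult kidney (vertical axis), as log2(CPM + 0.5) with samples pooled, 1 point per member; the solid line marks equal levels and the dashed line an adult level of 0.333 times the P0 level. Most of the 593 points lie below the dashed line; the labeled points include members with a high NP level and those with the largest rise, among them Casr at 47.4 CPM and Gm33543 at 105.2 CPM in the adult.

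The opposite change was seen in fewer members. In 61 members the adult LOH level exceeded the P0 level, and in 9 it was at least 2 times as high. The shares of NP-open peaks and of all peaks with such a rise were not counted. The largest was an exonic peak 68.7 kb from Gm33543, with 14.4 and 18.1 CPM in P0 LOH and 100.4, 91.6 and 115.7 CPM in adult LOH. The Casr peak went from 17.2 and 18.1 CPM to 24.3, 52.1 and 52.5. The peak near Aoc1, which encodes diamine oxidase, went from 7.79 and 8.93 CPM to 43.5, 38.4 and 34.0, and that near Edar, the ectodysplasin receptor, from 9.91 and 12.3 to 36.5, 40.9 and 35.1. These 4 members are among those with the largest rise, and in each every adult LOH sample lay above both P0 samples. Other clusters were also higher in the adult at some of them. The pooled Casr level went from 22.1 to 50.1 CPM in CNT and from 10.9 to 30.8 in PC, and the pooled Gm33543 level from 3.84 to 17.6 in Podo, 12.6 to 54.0 in CNT and 5.24 to 18.1 in PC. In PT the Gm33543 peak had 2.72 and 1.79 CPM at P0 and 14.8, 21.4 and 34.4 in the adult samples. The pooled Aoc1 level went from 2.99 to 6.63 CPM in CNT and from 1.87 to 4.96 in PC, and the Edar level was 3.65 to 3.90 in adult DCT, CNT and PC.

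Adult samples were not used by the rule, so the contrast of LOH with the other adult clusters could be tested across all peaks with the quasi-likelihood test of edgeR on open calls summed per sample and cluster, with the sample as a block and Benjamini-Hochberg adjustment at 0.05. The clusters were nevertheless built on open chromatin of all nuclei, adult ones included, and only peaks with enough open calls in the adult were tested. A member that passed this filter mostly did so through the cluster in which it was high, so the counts below describe the tested members and not all 593.

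Against adult PT, 303 members were tested, and 235 were higher in LOH and 16 lower. Over all 92429 peaks tested, 31.7% were called higher and 38.6% lower, and over the 19335 NP-open peaks tested, 43.8% and 16.1%. The median log2 fold change was 2.43 for the members tested and -0.10 for all peaks. Members low in both clusters were left out by the filter on low counts. Without it all 593 members were tested, 235 (39.6%) were higher in LOH and 30 lower, and their median was 1.04, beside 9.45% higher, 19.5% lower and a median of -0.22 over 297177 peaks. In 360 of the 593 members (60.7%) the LOH value exceeded the PT value in all 3 adult samples, against 48.3% of NP-open peaks and 22.0% of all peaks. Of the list members that passed the filter, 5 of 6 at progenitor genes, 3 of 3 at renal vesicle genes, 4 of 4 at distal transcription factors and 2 of 2 at thick ascending limb genes were called higher in LOH. These lists held 18, 10, 6 and 2 members, so most members of the first 2 lists were left out by the filter. The counts describe those that passed.

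The 5 members with the largest difference were near Ephb3, Slit1, Noct, Casr and G430095P16Rik. At Slit1, a secreted guidance ligand, adult LOH had 24.9, 44.7 and 31.7 CPM in the P21 and the 2 P56 samples and PT 0.110, 0.372 and 0.289, a log2 fold change of 6.89 ± 0.37 (SE, adjusted p = 1.49e-16, edgeR). At Casr LOH had 24.3, 52.1 and 52.5 CPM and PT 0.438, 0.372 and 0.347, a log2 fold change of 6.82 ± 0.33 (adjusted p = 7.06e-18, edgeR). The Ephb3 peak, 65.7 kb from the gene of an ephrin receptor, had 12.8, 33.5 and 18.7 CPM in LOH and rested on 3 open calls in PT, so the ratio was 277.9 with a 95% exact interval from 93.7 to 1359, which covers counting error only. At Noct and G430095P16Rik the log2 fold changes were 6.84 and 6.62. In none of the 5 did any LOH sample overlap a PT sample.

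Among the members with the smallest log2 fold changes were the peaks near Crispld2, Kcnk5, Lrp4 and Rassf2, and at each of them all adult PT samples also lay above both P0 PT samples. At Crispld2 PT had 9.64, 19.5 and 29.1 CPM and LOH 1.28, 2.11 and 1.83, a log2 fold change of -3.58 ± 0.36 (adjusted p = 2.11e-10, edgeR). At Kcnk5, a potassium channel gene, PT had 4.93, 6.88 and 6.71 CPM and LOH 2.56, 0.352 and 0.685, a log2 fold change of -2.75 ± 0.52 (adjusted p = 1.79e-05, edgeR). At Lrp4 and Rassf2 the log2 fold changes were -2.34 and -2.14. All PT samples lay above all LOH samples at these 4 peaks.

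**Figure D5:**
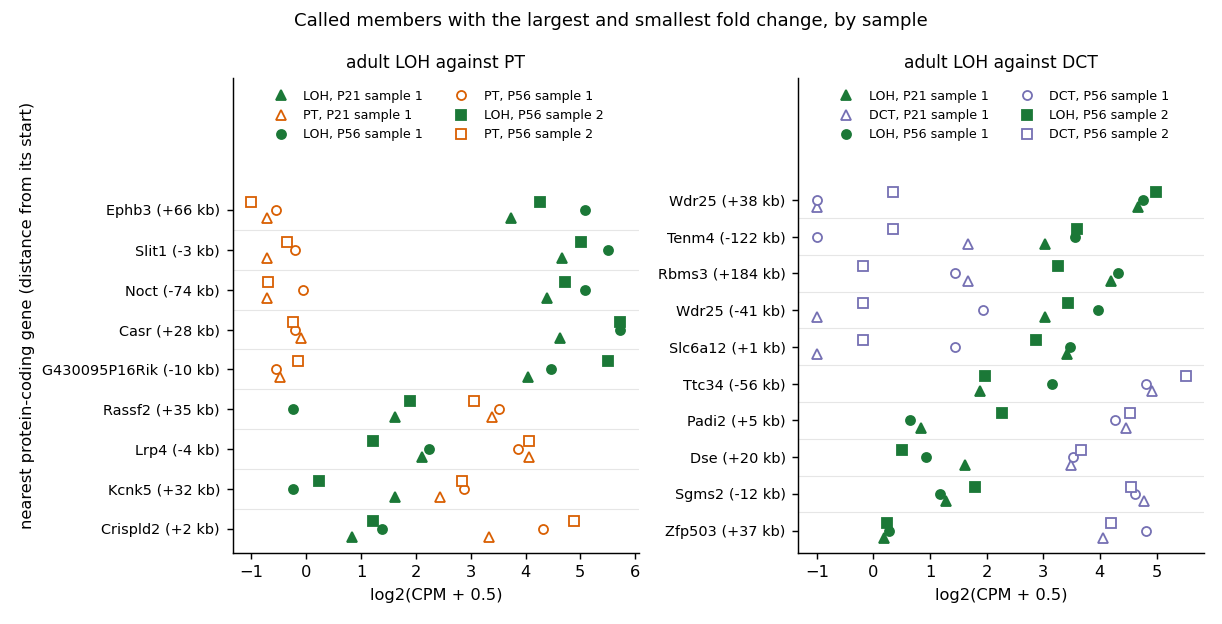
Level in each adult sample (horizontal axis, log2(CPM + 0.5)) of called members with the largest and the smallest log2 fold changes (vertical axis), for LOH (filled) against PT (open, left) and LOH against DCT (open, right), with triangles for P21 and circles and squares for the P56 samples. LOH and the other cluster are separate at every peak drawn; the Casr peak has 24.3 to 52.5 CPM in LOH and 0.347 to 0.438 in PT.

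Against adult podocytes only 76 members could be tested, with 47, 157 and 39 podocyte nuclei in the 3 samples. At this depth a member low in Podo passed the filter only where it was high in LOH, so the split that follows is a description of the members that passed. In LOH 70 were called higher and 0 lower, where 1 was lower at an unadjusted p under 0.05, 0 were lower with DESeq2 and 7 with Fisher's exact test over nuclei. Over all 25027 peaks tested, 26.6% were called higher in LOH and 19.2% lower. With no filter 587 members were tested and 148 (25.2%) were called higher and 0 lower, beside 8.19% and 1.96% of 271095 peaks and 33.5% and 3.74% of 24310 NP-open peaks, so the members' share was below that of NP-open peaks. At Casr LOH had 24.3, 52.1 and 52.5 CPM and Podo 0, 2.11 and 0, the latter from a single nucleus, a ratio of 43.1 with an exact 95% interval from 7.69 to 1706. At the Cacnb4 start LOH had 23.7, 27.8 and 34.2 CPM and Podo 0, 4.21 and 4.12 on 3 open calls, a ratio of 9.18 (3.11 to 44.8). Every LOH sample lay above every Podo sample at both peaks. Without P56 sample 1, which holds most of the podocyte nuclei, 45 members were called.

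Against adult DCT, a segment outside the rule, the members went both ways. Of 185 tested, 63 were higher in LOH and 42 lower, beside 14.8% and 11.8% of all 40226 peaks tested and 1466 and 953 of the 16281 NP-open peaks tested. The highest in LOH were a Wdr25 peak at 37.8 kb, the peaks near Tenm4 and Rbms3, another Wdr25 peak at -40.9 kb, and the start of Slc6a12, a betaine transporter. The Rbms3 peak had 17.9, 19.4 and 9.13 CPM in LOH and 2.70, 2.20 and 0.382 in DCT, a log2 fold change of 3.55 ± 0.53 (adjusted p = 4.06e-10, edgeR). The first Wdr25 peak had 24.9, 26.8 and 31.5 CPM in LOH on 2 open calls in DCT, a ratio of 56.2 with an exact 95% interval from 15.4 to 466.2. The Tenm4 and Slc6a12 peaks also rested on 3 open calls in DCT, with ratios of 14.1 (4.67 to 69.4) and 11.2 (3.71 to 55.7).

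The members lowest in LOH against DCT were near Zfp503, Sgms2, Dse, Padi2 and Ttc34. At Zfp503, a zinc finger gene, DCT had 16.2, 27.5 and 17.9 CPM and LOH 0.640, 0.704 and 0.685, a log2 fold change of -4.76 ± 0.47 (adjusted p = 3.67e-22, edgeR). At Sgms2, a sphingomyelin synthase gene, DCT had 27.0, 24.2 and 22.9 CPM and LOH 1.92, 1.76 and 2.97, a log2 fold change of -3.24 ± 0.35 (adjusted p = 1.40e-18, edgeR). The Mecom peak at 56.4 kb was also lower in LOH, with 8.96, 9.86 and 8.67 CPM against 29.7, 25.3 and 16.8 in DCT (log2 fold change -1.17 ± 0.27, adjusted p = 0.000155, edgeR), and no sample of one cluster overlapped the other. The Casr peak was higher in LOH by 0.97 ± 0.16 on the log2 scale (adjusted p = 1.17e-08, edgeR), but the clusters overlapped, since the P21 LOH value of 24.3 CPM lay below the DCT values of 27.0, 27.5 and 24.8. With DESeq2 42 members were called in place of 105, and without P56 sample 2, 47. Fisher's exact test over nuclei turned the split to 52 higher in LOH and 79 lower (8.81% and 13.4%), as it did over all peaks, with 5040 higher and 19317 lower, and over NP-open peaks, with 2.59% and 26.7%.

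Against adult principal cells 173 members were tested, 54 were higher in LOH and 65 lower, beside 20.6% and 20.7% of all 32713 peaks tested. The Pax2 peak at 74.9 kb, whose values stand above, was lower in LOH by a log2 fold change of -3.09 ± 0.28 (adjusted p = 6.04e-26, edgeR), and the Pax2 peaks at -2.42 and -8.20 kb by -1.49 and -0.78. The Fzd7 peak at -87.4 kb had 3.20, 6.34 and 4.56 CPM in LOH and 16.6, 39.6 and 37.3 in PC, a log2 fold change of -2.88 ± 0.29 (adjusted p = 4.38e-21, edgeR). The Abr peak at -16.1 kb had 0.640, 1.41 and 2.28 CPM in LOH and 11.0, 28.0 and 18.3 in PC, a log2 fold change of -3.62 ± 0.43 (adjusted p = 5.79e-16, edgeR). The Apobec2 peak went the other way, with 19.2, 30.6 and 29.2 CPM in LOH and 1.84, 6.99 and 6.33 in PC, a log2 fold change of 2.19 ± 0.31 (adjusted p = 5.19e-11, edgeR). The LOH and PC samples did not overlap at any of these 4 peaks. With DESeq2 78 members were called in place of 119. The split moved with the test, to 87 higher and 72 lower with no filter on low counts and to 46 higher and 172 lower by Fisher's exact test on nuclei. The background moved in the same way, to 8.03% higher and 3.46% lower of all peaks and 34.5% and 3.64% of NP-open peaks with no filter, and to 2.53% and 13.2% of all peaks with Fisher's exact test.

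At P0 DCT and PC, both outside the rule, were also compared. Of 394 members tested, 27 were higher in DCT and 60 lower, beside 6.81% and 9.58% of all 40700 peaks tested. The count higher in DCT lay near the share over all peaks. A member could pass the filter on low counts through the cluster in which it was high, so these counts describe the tested members. The Pou3f3 peak named below passed through PC alone. The Mecom peak at 56.4 kb had 18.4 and 27.0 CPM in DCT and 7.09 and 4.50 in PC, a log2 fold change of 1.89 ± 0.49 (adjusted p = 0.0128, edgeR). The Lhx1 peak at -135.7 kb had 2.63 and 9.83 CPM in DCT and 28.0 and 21.8 in PC, a log2 fold change of -2.03 ± 0.49 (adjusted p = 0.00816, edgeR). The Pax2 peak at 74.9 kb had 15.8 and 7.37 CPM in DCT and 41.1 and 36.8 in PC, a log2 fold change of -1.83 ± 0.32 (adjusted p = 0.000792, edgeR). The peak 23.2 kb from Pou3f3, a POU factor gene of the distal nephron, had no open call in the DCT nuclei of either sample and 8.96 and 11.3 CPM in PC, which makes PC at least 2.65-fold higher when DCT is set at 3 open calls over both samples (adjusted p = 0.0148, edgeR). In these 4 members, all of them called, the samples of the 2 clusters did not overlap. The share of other peaks without overlap was not counted, so this is no further support. With 51 and 57 DCT nuclei and 2 samples, the spread was mostly estimated across peaks, and DESeq2 called 4 members in place of 87.

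The stage change was tested in DCT, where the P0 values had no part in the rule. Of 31 members tested, 2 were higher at P0 and 1 lower, beside 1.13% and 2.60% of all 12247 peaks tested, and all 3 are named here after their values were seen. A member could pass the filter on low counts through the stage in which it was high, so these counts describe the tested members. The Sh3rf3 and Chst11 peaks passed through their P0 values. The Sh3rf3 peak had 42.1 and 27.0 CPM at P0 and 10.8, 12.1 and 3.05 in the adult, a log2 fold change of 2.56 ± 0.59 (adjusted p = 0.0145, edgeR). The Chst11 peak had 26.3 and 24.6 CPM at P0 and 8.09, 5.51 and 1.53 in the adult, a log2 fold change of 3.09 ± 0.65 (adjusted p = 0.00852, edgeR). The Gm33543 peak rose from 26.3 and 22.1 CPM to 86.3, 65.0 and 77.8, a log2 fold change of -1.39 ± 0.28 for P0 against adult (adjusted p = 0.00605, edgeR). The stages did not overlap at any of the 3. With no filter 22 members (3.75%) were higher at P0 and 2 lower (0.341%) of 586 tested, beside 0.478% and 0.362% of NP-open peaks and 0.0899% and 0.384% of all 232546 peaks. With Fisher's exact test over nuclei 209 (35.7%) and 1 were, beside 22.1% and 0.0957% of NP-open peaks and 5.45% and 0.169% of all peaks. The median of all 593 members in DCT was 7.90 and 4.91 CPM at P0 and 2.70, 2.20 and 1.14 in the adult, and 212 (35.8%) kept at least 0.5 times their pooled P0 level, against 72.0% of NP-open peaks. When either P0 sample was left out, the other was assumed to vary like the adult samples, and 0 members were called by edgeR, with 20 and 32 at an unadjusted p under 0.05, while 10 were called without the P21 sample and 5 without P56 sample 1.

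Short words of factor families were counted in the central 300 bases of the peaks, on both strands and letter by letter, as a description. The words given here are a part of those counted. Among the 539 members away from start sites, the posterior Hox word CCATAAA was in 7.61%, against 5.14% of the 11657 NP-open peaks away from starts. The Tcf/Lef word ATCAAAG was in 8.16% against 5.49%, the octamer ATGCNAAT in 4.45% against 2.40%, the Hnf1 word GTTAATNAT in 1.86% against 0.849%, and the Fox word TGTTTAC in 6.68% against 4.50%. The Pax2/8 word GTCANGC was in 13.2% against 12.6% and the Irx word TACATGT in 1.30% against 1.47%, both near the background. The Lim homeobox word TAATTA was in 8.91% against 7.51%, and the Esrr word TCAAGGTCA in 1.30% against 0.695%. The Tfap2 word GCCNNNGGC was in 10.9% against 13.4%, and the Wt1 word CTCCCNCNC in 17.1% against 21.4%. When whole peaks of all members were read, those over starts included, the Tfap2 word was in 31.4%, against 30.3% of NP-open peaks away from starts. The Wt1 word was in 38.8% against 43.8%. These whole-peak sets differ in their start sites, so they do not settle the direction of the Tfap2 difference. The Hnf4 word CAAAGTCCA, of the main factor of the proximal tubule, was in 0 of the members' 300 bases against 0.386% of NP-open peaks away from starts, a share at which a count of 0 is close to the background. When whole peaks were read it was in 5 members (0.843%), against 1.35% of NP-open peaks away from starts and 1.21% of all peaks. With peaks at start sites included, 7.25% of members held the posterior Hox word and 7.59% the Tcf/Lef word, against 8.35% and 8.35% of the progenitor peaks closed in LOH, PT and Podo. The Fox word was in 6.41% of members and 7.19% of the peaks kept only in Podo, and the Wt1 word in 18.7% and 31.5%. Over all 300693 peaks read, the shares were 4.94% for posterior Hox, 5.19% for Tcf/Lef, 3.58% for the octamer, 1.48% for Hnf1, 5.09% for Fox, 8.97% for Tfap2, 11.2% for Wt1 and 0.802% for Hnf4. Members with PC at or below 0.333 times NP held the Hnf1 word in 3.43% and the Tfap2 word in 6.86%, and those with PC at 0.5 times NP or more in 1.27% and 13.4%. Some words can overlap each other, and the Hnf1 counts are small, with 10 members in all.

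The 5 samples held 3361 to 7129 nuclei and 16980853 to 43794155 open calls. The P21 sample had the fewest nuclei and open calls, and P56 sample 1 the fewest open peaks a nucleus, with a median of 3371. LOH nuclei numbered 635 and 652 at P0 and 394, 1042 and 905 in the adult, with a median of 6567 and 7430 open peaks a nucleus at P0 and 3084, 2496 and 4477 in the adult. In 477 of 27834 distinct barcodes the same sequence occurred in more than 1 sample. CPM scale by the open calls of a cluster, and the part of depth per nucleus in the stage differences was not tested.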

How the data were processed

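Single-nucleus ATAC-seq of mouse kidney was used from 2 P0, 1 P21 and 2 P56 samples. Per the study's methods, the authors aligned reads to mm10 with Cell Ranger ATAC 1.1.0, kept barcodes by their fragments, promoter ratio and share of mitochondrial reads, used SnapATAC with Harmony for clusters, and called MACS2 peaks on pooled nuclei of each cell type before merging them. The matrix the authors deposited holds counts that are binarized, 1 where a nucleus has a fragment in a peak, for 28316 nuclei and 300755 peaks with 166031996 open calls, and 89197 stored entries of 0 were left out. No doublet removal is stated and none was made here. The deposited peak list gives position and width, and the deposited metadata give the sample and cluster of each nucleus. The 2 further clusters outside the 13 named cell types, the single-cell RNA files, which hold cluster names and coordinates, and bulk ATAC-seq were not used here.

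Open calls were summed per sample and cluster. PT is the deposited cluster of that name; the test plan had worded it as the convoluted and straight clusters summed, which is given as an alternative. Contrasts were tested over all peaks with edgeR 4.0.16 (R 4.3.3; quasi-likelihood, TMM, filterByExpr with a minimum count of 10 and total of 15, sums of at least 20 nuclei, sample as a block except between stages, where replicate numbers did not pair the samples), with Benjamini-Hochberg adjustment at 0.05. Standard errors were the log2 fold change over the root of the F statistic. Intervals are exact, cover counting error only, and a count of 0 was bounded at 3 open calls over the group. DESeq2 1.42.0 and Fisher's exact test over nuclei were alternatives. The edgeR step was tested on simulated data, and the Fisher step was compared with R's own Fisher test on some of the real peaks. Genes were assigned from GENCODE M21 by the nearest protein-coding start, and sequence was read from GRCm38. Named peaks were the 10 members highest in NP, the 5 largest and smallest called changes against PT and DCT, and members at listed genes or at genes with at least 3 members. A named peak and a sequence word are not reported here. The members, gene lists and words were chosen with earlier results of these data known. Of 27834 distinct barcodes, 477 occurred in more than 1 sample.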

Additional observations from a re-analysis of the deposited data

How the results depend on the processing

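The number of members moved with the thresholds and the scale. It was 593 as described, 1141 when shares of nuclei replaced CPM in the ratios, 141 with at least 20 CPM in NP, 1552 with at least 5 CPM, 121 with stricter ratios, and 598 to 639 in 1 P0 sample alone. It was 459 with PT and PT2 each held to the PT threshold and 862 with nuclei thinned to 1000 open peaks, of which 330 were members. Chosen after seeing the data, PT and PT2 summed gave 568 peaks, 564 of them members, and leaving out LOH nuclei with an open progenitor start gave 489. Members called against PT numbered 217 to 314 over all alternatives. Against Podo, 70 became 148 with no filter on low counts, and 45 to 98 without 1 sample. Against DCT, 105 became 42 with DESeq2 and 47 to 127 without 1 sample, and Fisher's exact test over nuclei turned the split from 63 higher and 42 lower to 52 and 79. Against PC, 119 became 78 with DESeq2 and 218 with Fisher's exact test over nuclei, and 83 to 163 without 1 sample. Between stages in DCT, 3 became 1 with DESeq2, 24 with no filter, 210 with Fisher's exact test over nuclei, and 0 to 10 without 1 sample. For DCT against PC at P0, 87 became 4 with DESeq2, and with no filter 4 were higher and 99 lower, beside 0.343% and 2.39% of all peaks and 0.278% and 7.14% of NP-open peaks. The causes of these shifts were not tested. Without the sample block 238, 71, 74, 89 and 114 members were called against PT, Podo, DCT and PC and for DCT against PC at P0. The replicate number as a block between stages left 3, and same-numbered samples did not deviate together (r = 0.06 over 12247 peaks). The Enc1 peak against PC reversed with no filter, from -0.44 to 0.14 on the log2 scale (adjusted p = 0.963, edgeR). Of 822 values of 91 log2 fold changes of named peaks under the alternatives, 705 kept direction and side of the threshold and 116 lost the call. Podo with at least 50 nuclei was not run, as 1 sample was left, and leaving out a P0 sample for DCT against PC left 1 sample a cluster and no test. The 51 and 57 DCT nuclei at P0 and the 39 to 157 adult podocyte nuclei limit what could be seen.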

Other observations

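Several members with a higher level in the adult loop than at P0 lay at genes outside the lists above. The Klk1b8 peak, at a gene of the kallikrein family, had 8.73 and 9.53 CPM in P0 LOH and 33.9, 35.6 and 36.5 in adult LOH. The peak -9.13 kb from Spata13 had 20.5 and 16.1 CPM at P0 and 33.3, 44.0 and 37.4 in the adult, and the peak -13.0 kb from Abcc4, an organic anion exporter, had 13.9 and 8.34 and then 17.3, 28.9 and 24.6. These 3 members were also among those with the largest rise, and in each every adult LOH sample lay above both P0 samples. Other clusters were also higher in the adult. The pooled Spata13 level went from 39.4 to 54.1 CPM in DCT, 29.3 to 57.7 in CNT and 30.5 to 57.0 in PC, all above adult LOH at 38.8, the Klk1b8 level from 8.97 to 29.5 in CNT, and the Abcc4 level from 3.11 to 14.4 in PT and 5.43 to 16.3 in PC. Among the 9 members at 2 times their P0 level or more, the adult samples overlapped P0 only near F930015N05Rik, with 15.3 and 12.3 CPM at P0 and 35.8, 54.9 and 14.4 in the adult. The P0 values of LOH chose the members, so these changes were not tested.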
